A study of Mus musculus with 4 samples.

Results

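AP-1 and the factors induced with it were followed here in alveolar type 2 (AT2) cells, which make lung surfactant and renew the alveolar lining, sorted from mice injured with bleomycin. The members were the 10 genes Fos, Fosb, Fosl1, Fosl2, Jun, Junb, Jund, Atf3, Egr1 and Ier2, taken by gene symbol from the 40092 genes of the count table, and each symbol matched 1 row. The study asked what loss of Alkbh5, which removes N6-methyladenosine from RNA, does to AT2 cells after injury. The control group (Ctrl, n = 2) was Alkbh5flox/+ and the knockout group (A5-CKO, n = 2) was Alkbh5flox/flox. Both genotypes also carried Sftpc-CreERT2 and Rosa26-mTmG, received tamoxifen, were injured with bleomycin, and gave GFP+ cells by flow sorting on day 14. The controls were littermates that could themselves lose 1 Alkbh5 allele. Cre was driven from the Sftpc locus, so the sorted cells were those that had recombined the reporter, whatever they had become by day 14. The ages and sexes of these mice, and whether a library came from 1 mouse or several, are not given in the sources used here, so the p-values below measure only the spread between these libraries, which may be technical.

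AP-1 is a dimer of basic leucine zipper proteins: a Fos protein pairs with a Jun protein, Jun proteins also pair with each other, and Atf3 pairs with Jun proteins or with itself. Most of these genes are immediate early genes, whose transcription starts within minutes of a growth factor, stress or injury signal through proteins already present in the cell, and whose mRNAs decay fast. Egr1, a zinc finger factor, and Ier2 are switched on by the same signals, and enzymatic dissociation and sorting of a tissue are known to induce many immediate early genes.

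Signals reach several of these genes through short elements near the start of transcription, and the promoters are shown for the 4 members whose levels stood farthest apart between libraries among those with an entry in the promoter table. Each run is the 250 bases before the start site, 5′ to 3′ on the strand of the gene, from RefSeq on GRCm38.p6. The start used for Fosb lies inside the annotated gene, so that run overlaps the gene's first bases. Capitals mark matches to the motifs searched: the cAMP response element core (TGACGT or ACGTCA, which the full element TGACGTCA contains), the variant AP-1 sites TGACATCA and TTACCTCA, and the TATA box TATAAA. The AP-1 site TGAGTCA and the CArG box, which serum response factor binds, were also searched. A match describes the letters only. The Atf3 promoter is chr1:191183334-191183583 on the minus strand, the Fosb promoter chr7:19310046-19310295 on the minus strand, the Fos promoter chr12:85473640-85473889 on the plus strand and the Jun promoter chr4:95052223-95052472 on the minus strand.
Atf3: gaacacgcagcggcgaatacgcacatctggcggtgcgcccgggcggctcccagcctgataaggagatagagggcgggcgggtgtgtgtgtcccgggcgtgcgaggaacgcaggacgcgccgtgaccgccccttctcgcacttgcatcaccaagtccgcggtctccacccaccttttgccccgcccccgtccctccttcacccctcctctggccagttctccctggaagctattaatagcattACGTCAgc
Fosb: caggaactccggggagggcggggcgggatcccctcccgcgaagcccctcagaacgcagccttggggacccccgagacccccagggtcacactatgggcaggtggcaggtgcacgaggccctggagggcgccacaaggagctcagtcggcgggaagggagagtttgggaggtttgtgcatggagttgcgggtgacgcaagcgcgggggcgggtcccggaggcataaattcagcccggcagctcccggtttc
Fos: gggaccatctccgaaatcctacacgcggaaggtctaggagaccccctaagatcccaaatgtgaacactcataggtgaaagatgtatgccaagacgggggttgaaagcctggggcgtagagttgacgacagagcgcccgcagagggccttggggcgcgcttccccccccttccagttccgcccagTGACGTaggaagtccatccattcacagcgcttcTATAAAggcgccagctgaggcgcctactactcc
Jun: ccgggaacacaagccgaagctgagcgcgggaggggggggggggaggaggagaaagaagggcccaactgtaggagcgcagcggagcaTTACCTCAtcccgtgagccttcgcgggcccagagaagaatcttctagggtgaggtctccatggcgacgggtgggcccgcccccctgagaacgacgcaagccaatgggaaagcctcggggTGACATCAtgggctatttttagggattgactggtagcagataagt
The core element began 8 bases before the start of Atf3 and 66 bases before that of Fos, whose TATA box lay at 33 bases. In Jun, TGACATCA began 45 bases and TTACCTCA 164 bases before the start. The Fosb window held none of these letters. None of the windows of the 7 members with an entry held an AP-1 site or a CArG box, and bases farther upstream were not searched. Among all 32851 promoters of the table, with both strands searched except for the TATA box, and with the 50 bases after each start included as they were for the members, 7.51% held the core element, 5.2% the AP-1 site or its complement, 1.63% a CArG box, 3.62% TGACATCA or its complement, 0.889% TTACCTCA or its complement, and 8.32% TATAAA. An entry was found for 7 of the 10 members, and Fosl2, Jund and Junb are the others with one.

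The 4 libraries held 18144865 to 20811757 counts, and the 10 members had 32 to 55964 counts in a library, all above the 3 counts taken as the floor of detection. The targeted gene, Alkbh5, had 81.7 and 152 CPM (normalized counts scaled to 1000000 TMM-adjusted counts in a library) in Ctrl 1 and Ctrl 2, against 19.3 and 36.6 in A5-CKO 1 and A5-CKO 2. These counts cover the whole gene, whereas the study's allele deletes the start codon region with exon 1. AT2 markers were abundant, with Sftpc, the surfactant protein that defines the type, at 7856 to 16370 CPM. No gene of 16661 tested passed an adjusted p of 0.05 by edgeR's quasi-likelihood test, and 1530 (9.18%) had an unadjusted p under 0.05. DESeq2 with default filtering called 59, which is 0.38% of the 15525 genes it gave an adjusted p. A5-CKO 1 stood apart more often than the other libraries did, with 4.35% of genes over 2-fold above each of the others, against 1.23% for Ctrl 1, 1.72% for Ctrl 2 and 2.95% for A5-CKO 2. The TMM factors differed between the genotypes, and with total counts only the all-gene median of the log2 fold change was 0.30 in place of -0.02, so every difference below is relative to that median. In bulk RNA of this kind, fewer cells of a type and less RNA per cell cannot be told apart.

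None of the 10 members passed the adjusted threshold between A5-CKO and Ctrl, where 0.0% of all genes did. Atf3 and Fosb had an unadjusted p under 0.05 and were higher on average in A5-CKO, which makes 2 of 10 members beside 4.48% of all genes (5.89% with a fold over 2 in either direction), and no member was lower at that level, beside 4.71%. Atf3 was not under 0.05 with limma voom (p of 0.0916), a robust fit (0.0709), the replicate block (0.0935) or DESeq2 with default filtering (0.0556, but 0.00129 on the genes edgeR tested), nor was Fosb with the first 3 (0.137, 0.101 and 0.208) or with no filter (0.0707). With its default filtering DESeq2 passed no member after adjustment. It gave an unadjusted p under 0.05 for Fosb and Fosl1, beside 6.75% of the 27072 genes in that run. Both differences of the edgeR fit rested on 1 library: A5-CKO 1 held 1148 CPM of Atf3 and 1704 CPM of Fosb, and A5-CKO 2 held 135 and 190. The 2 groups did not overlap for Fosl1, Fosl2 and Atf3, all higher in A5-CKO, and 20.3% of all genes were separated in that direction. No member was separated in the other direction, beside 23.5% of all genes.

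**Figure D1:**
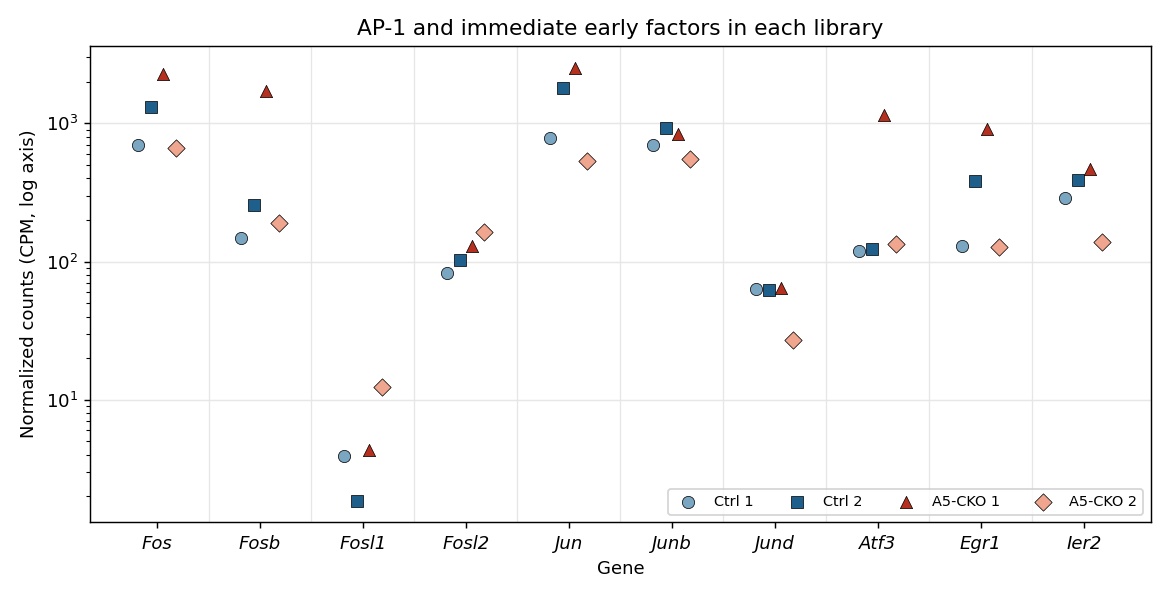
Normalized count (CPM, log axis) of each of the 10 factors in the 4 libraries, each point 1 library, with Ctrl and A5-CKO in different colours. A5-CKO 1 is the highest point for 7 of the 10 genes, and Atf3 and Fosb show it over 4-fold above every other library.

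Among the Fos family, Fos, the dimer partner that gives AP-1 its strongest trans-activation, was 1 of the most abundant members. Fos (chromosome 12, 85473890 to 85477274, plus strand, 4 exons) had 697 and 1311 CPM in Ctrl 1 and Ctrl 2, and 2259 and 660 CPM in A5-CKO 1 and A5-CKO 2. The 2 A5-CKO libraries thus lay on either side of both Ctrl libraries. Between genotypes the log2 fold change came to 0.54 (standard error 0.63, 95% interval -0.95 to 2.03, adjusted p = 0.771 by edgeR's quasi-likelihood test), and a change in either direction was within that interval.

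Fosb, another immediate early Fos protein, also gives a truncated form by splicing, which counts per gene do not separate. Fosb (chromosome 7, 19302696 to 19310118, minus strand, 4 exons) had 148 and 258 CPM in the Ctrl libraries, 1704 CPM in A5-CKO 1 and 190 CPM in A5-CKO 2. A5-CKO 1 stood 6.601-fold above the next library, which was Ctrl 2, and 0.102% of all genes had A5-CKO 1 at least as far above the rest. A5-CKO 2 lay between the 2 Ctrl libraries, so the groups overlapped. A5-CKO exceeded Ctrl by 2.22 on the log2 scale (standard error 0.91, 95% interval 0.05 to 4.39, adjusted p = 0.528 by edgeR's quasi-likelihood test). Its mean of 947 ± 1070 CPM (SD, n = 2) in A5-CKO carried an SD larger than the mean, against 203 ± 77.9 CPM in Ctrl.

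Fosl1 and Fosl2 encode Fra-1 and Fra-2, Fos proteins without the strong activation domain that accumulate later and often replace Fos in lasting responses. Fosl1 (chromosome 19, 5447698 to 5455938, plus strand, 4 exons) had 3.90 and 1.86 CPM in Ctrl 1 and Ctrl 2, and 4.30 and 12.3 CPM in A5-CKO 1 and A5-CKO 2. The groups did not overlap, but A5-CKO 1 exceeded Ctrl 1 by 1.10-fold, and the separation rested mainly on A5-CKO 2. On the log2 scale A5-CKO was 1.52 above Ctrl (standard error 0.71, 95% interval -0.16 to 3.20, adjusted p = 0.528 by edgeR's quasi-likelihood test). Fosl1 overlaps Ccdc85b, which had 521 to 818 counts beside the 32 to 287 of Fosl1, and without a known strand setting reads could pass between them.

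Fosl2 (chromosome 5, 32136472 to 32157840, plus strand, 4 exons) had the smallest standard error of the 10 members. It had 82.7 and 103 CPM in the Ctrl libraries and 130 and 165 CPM in the A5-CKO libraries, means of 92.7 ± 14.2 and 147 ± 24.8 CPM (SD, n = 2 each). Both A5-CKO libraries lay above both Ctrl libraries, on average by 0.67 on the log2 scale (standard error 0.31, 95% interval -0.06 to 1.39, adjusted p = 0.528 by edgeR's quasi-likelihood test). It is the only member besides Fosl1 that was highest in A5-CKO 2.

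Among the Jun family, which all AP-1 dimers of the Fos proteins require, Jun is the strongest activator. Jun (chromosome 4, 95049036 to 95052222, minus strand, a single exon) had 787 and 1802 CPM in Ctrl 1 and Ctrl 2, and 2534 and 532 CPM in A5-CKO 1 and A5-CKO 2. The 2 A5-CKO libraries were again the highest and the lowest of the 4, 4.76-fold apart, and the Ctrl libraries differed 2.29-fold. A log2 difference of 0.24 between genotypes (standard error 0.75, 95% interval -1.53 to 2.02, adjusted p = 0.922 by edgeR's quasi-likelihood test) was smaller than its error, and limma voom put it at -0.034. The antisense gene Junos, which overlaps Jun, had 334 to 1243 counts beside the 12458 to 55964 of Jun.

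Junb and Jund, Jun proteins that can restrain growth in many cells, did not share the high level of A5-CKO 1. Junb (chromosome 8, 84976909 to 84978748, minus strand, a single exon) had 700 and 926 CPM in Ctrl and 832 and 550 CPM in A5-CKO, with Ctrl 2 the highest library and A5-CKO 2 the lowest. Jund (chromosome 8, 70697739 to 70700616, plus strand, a single exon) is the member known for steady expression in resting cells, and it had 63.5 and 62.3 CPM in the Ctrl libraries and 64.1 CPM in A5-CKO 1. A5-CKO 2 was the low library for Jund, at 27.0 CPM. On the log2 scale the differences were -0.23 for Junb (standard error 0.38, 95% interval -1.14 to 0.67, or 0.089 with total counts only) and -0.47 for Jund (standard error 0.43, 95% interval -1.49 to 0.56), with adjusted p of 0.848 and 0.707 by edgeR's quasi-likelihood test.

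Atf3, a stress-induced member of the ATF group that represses or activates depending on its partner, had the largest difference of the 10. Atf3 (chromosome 1, 191170296 to 191183333, minus strand, 4 exons) had 118 and 123 CPM in Ctrl 1 and Ctrl 2, 1148 CPM in A5-CKO 1 and 135 CPM in A5-CKO 2. The groups did not overlap, yet A5-CKO 2 was only 1.09-fold above Ctrl 2, while A5-CKO 1 was 8.51-fold above A5-CKO 2, a lead over the next library that 0.06% of all genes reached. Its log2 difference of 2.41 (standard error 0.87, 95% interval 0.34 to 4.48, unadjusted p of 0.0287 and adjusted p of 0.528 by edgeR's quasi-likelihood test) was the highest of the members. The 2 Ctrl libraries were close, at 121 ± 3.55 CPM (SD, n = 2), and the A5-CKO libraries gave 641 ± 716 CPM.

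Egr1, on chromosome 18, binds GC-rich sites and is induced through serum response factor. It had 129 and 382 CPM in Ctrl 1 and Ctrl 2, and 905 and 128 CPM in A5-CKO 1 and A5-CKO 2. A5-CKO 2 and Ctrl 1 differed by under 1 CPM, and the 2 libraries of each genotype were 2.96-fold apart in Ctrl and 7.05-fold apart in A5-CKO. A5-CKO was 1.02 above Ctrl on average on the log2 scale (standard error 0.89, 95% interval -1.09 to 3.12, adjusted p = 0.694 by edgeR's quasi-likelihood test).

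Ier2, a nuclear protein of the immediate early response, spread less between libraries than Egr1. Ier2 (chromosome 8, 84661331 to 84662852, minus strand, a single exon) had 289 and 390 CPM in Ctrl 1 and Ctrl 2, and 467 and 138 CPM in A5-CKO 1 and A5-CKO 2. The A5-CKO libraries enclosed the Ctrl libraries, as they did for Fos and Jun. Between genotypes the difference was -0.17 on the log2 scale (standard error 0.57, 95% interval -1.51 to 1.17, adjusted p = 0.930 by edgeR's quasi-likelihood test), and 0.15 with total counts only.

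Leaving out A5-CKO 1 showed how much of the genotype difference that library carried, with A5-CKO 2 then assumed to vary like the others. The log2 fold change went from positive to negative for Fos (-0.62), Fosb (-0.11), Jun (-1.29) and Egr1 (-1.01), 4 of 10 members beside 9.65% of all genes tested with all 4 libraries. That of Atf3 went from 2.41 to 0.15 (standard error 0.46). The median over the 10 members was 0.60 with all libraries, where 7 were above 0 (49.1% of all genes), and -0.60 without A5-CKO 1, where 3 were above 0 (45.7% of all genes). Over all genes the corresponding medians were -0.02 and -0.09.

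The members that kept a positive value without A5-CKO 1 were Atf3, Fosl1 and Fosl2. Fosl1 was then 2.08 above Ctrl on the log2 scale (standard error 0.68) and Fosl2 0.82 above (standard error 0.46). The unadjusted p was 0.0202 for Fosl1, beside 2.71% of genes under 0.05 and higher in A5-CKO in that fit. Jund (-1.23, p of 0.0380) and Ier2 (-1.31, p of 0.0471) were under 0.05 on the lower side, beside 1.59% of genes. Without A5-CKO 2, the values were 3.04 for Fosb, 3.21 for Atf3 and 1.79 for Egr1, each with an unadjusted p under 0.05, beside 4.82% of all genes higher at that level. In that fit Fosl1 was at 0.55 (p of 0.505) and Fosl2 at 0.45 (p of 0.354). None of these p-values passed 0.05 after adjustment over all genes.

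**Figure D2:**
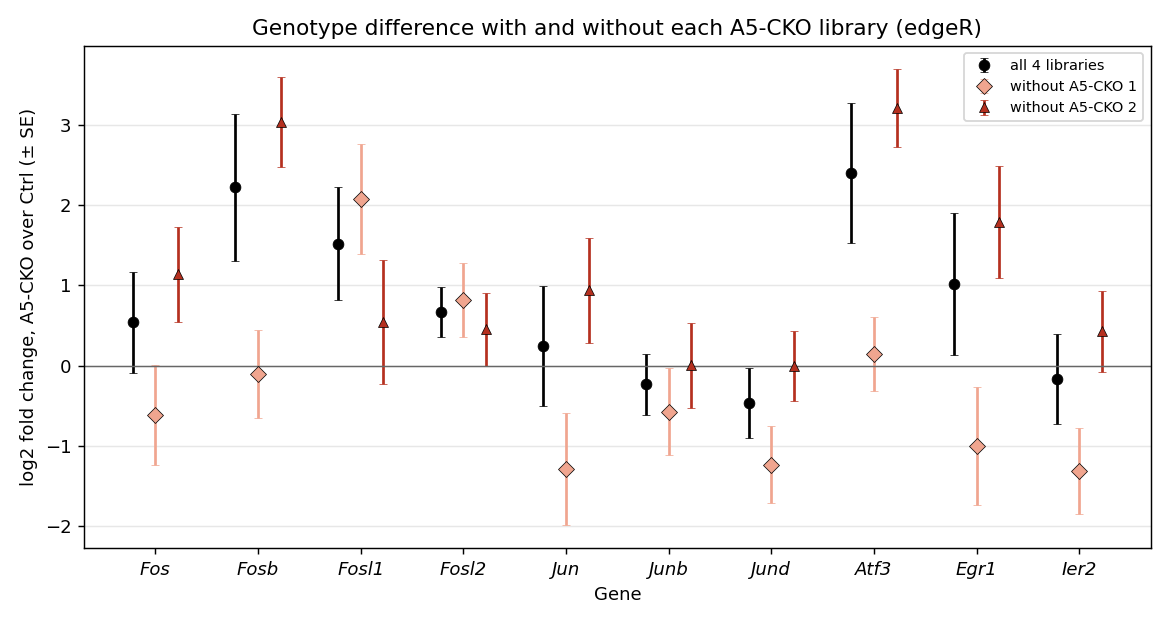
Log2 fold change (A5-CKO over Ctrl, edgeR) of each factor with all 4 libraries, without A5-CKO 1 and without A5-CKO 2, with bars of 1 standard error. Without A5-CKO 1 the values of Fos, Fosb, Jun and Egr1 lie below 0, while those of Fosl1 and Fosl2 stay above it.

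The 2 A5-CKO libraries stood far apart for 6 of the 10 members. On a log2 scale with 1 CPM added, A5-CKO 1 exceeded A5-CKO 2 by 3.16 for Fosb, 3.08 for Atf3, 2.81 for Egr1, 2.25 for Jun, 1.77 for Fos and 1.76 for Ier2. Differences of at least these sizes, in either direction, were found in 0.516%, 0.564%, 0.756%, 1.58%, 3.19% and 3.29% of all genes. Of the other 4, Jund differed by 1.22 (8.44% of genes at least as far), Junb by 0.60 (30.3%), Fosl2 by -0.34 (52.5%) and Fosl1 by -1.32 (6.93%), the last pair being higher in A5-CKO 2. The difference between the Ctrl libraries was smaller for the first 6, with Ctrl 2 above Ctrl 1 by 1.56 for Egr1, 1.19 for Jun and 0.91 for Fos. Ctrl 2 was the higher Ctrl library for 8 of the 10 members, beside 49.3% of all genes. A5-CKO 1 was the highest of the 4 libraries for 7 of 10 members, Ctrl 2 for 1, Ctrl 1 for none and A5-CKO 2 for 2, beside 27.8%, 28.3%, 23.6% and 20.2% of all genes. It was over 2-fold above each other library for Fosb, Atf3 and Egr1 and over 4-fold for Fosb and Atf3, beside 4.35% and 0.432% of all genes.

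**Figure D3:**
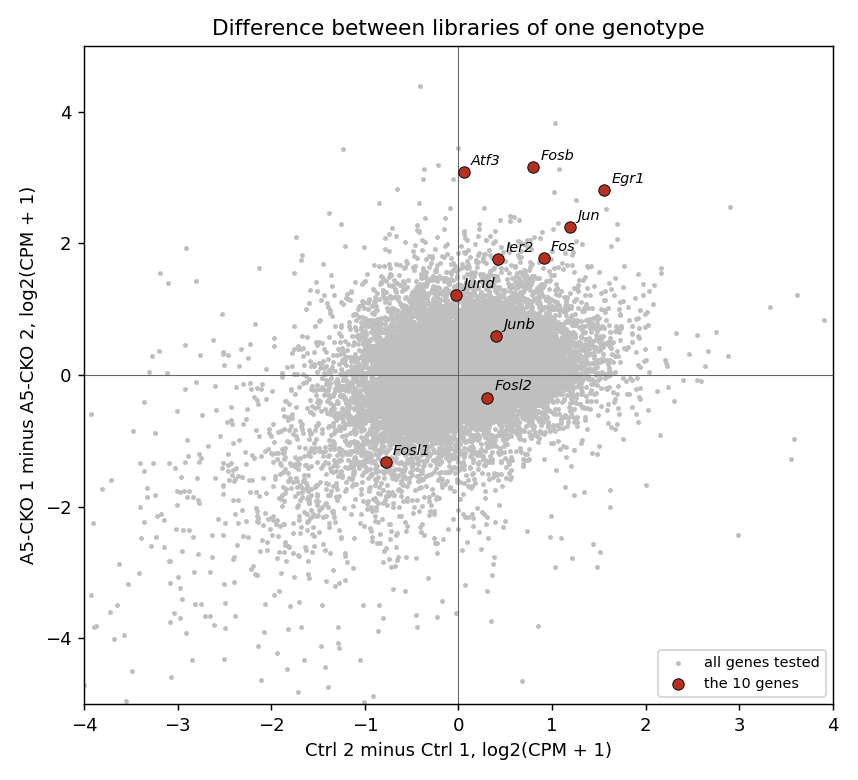
Difference between the 2 libraries of each genotype for every tested gene (grey) and the 10 factors (coloured and named), as log2(CPM + 1) of Ctrl 2 minus Ctrl 1 on the x axis and of A5-CKO 1 minus A5-CKO 2 on the y axis; 13 genes lie beyond the axes. Fosb, Atf3, Egr1 and Jun sit above 2 on the y axis, and Fosl1 and Fosl2 sit below 0.

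Summed over the 10 genes, the factors took 0.281% and 0.460% of the counts of Ctrl 1 and Ctrl 2, 1.11% of those of A5-CKO 1 and 0.285% of those of A5-CKO 2. A5-CKO 2 therefore lay next to Ctrl 1, and A5-CKO 1 was alone above 1%. The make-up of the sum differed as well. Fosb and Atf3 made up 16.96% and 11.42% of the members' counts in A5-CKO 1, at most 7.498% and 5.315% in the others, whereas Junb made up 8.29% in A5-CKO 1 and 17.3% to 23.2% in the others. The reads of Fosb per read of Fos were 0.212 and 0.197 in the Ctrl libraries, 0.754 in A5-CKO 1 and 0.288 in A5-CKO 2. The ratio of Fos to Jun moved less, from 0.728 in Ctrl 2 to 1.24 in A5-CKO 2. It too was higher in A5-CKO, though A5-CKO 1 (0.892) barely exceeded Ctrl 1 (0.886). Both A5-CKO libraries had more Fosb per Fos and more Atf3 per Jun (0.453 and 0.253, against 0.151 and 0.0685) than both Ctrl libraries. Junb per Jun overlapped, lowest in A5-CKO 1 (0.329) and highest in A5-CKO 2 (1.03), with Ctrl 2 (0.514) and Ctrl 1 (0.889) between. How often ratios of other gene pairs separate the genotypes was not tested. With 2 against 2 an exact two-sided permutation test cannot give a p below 0.333.

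**Figure D4:**
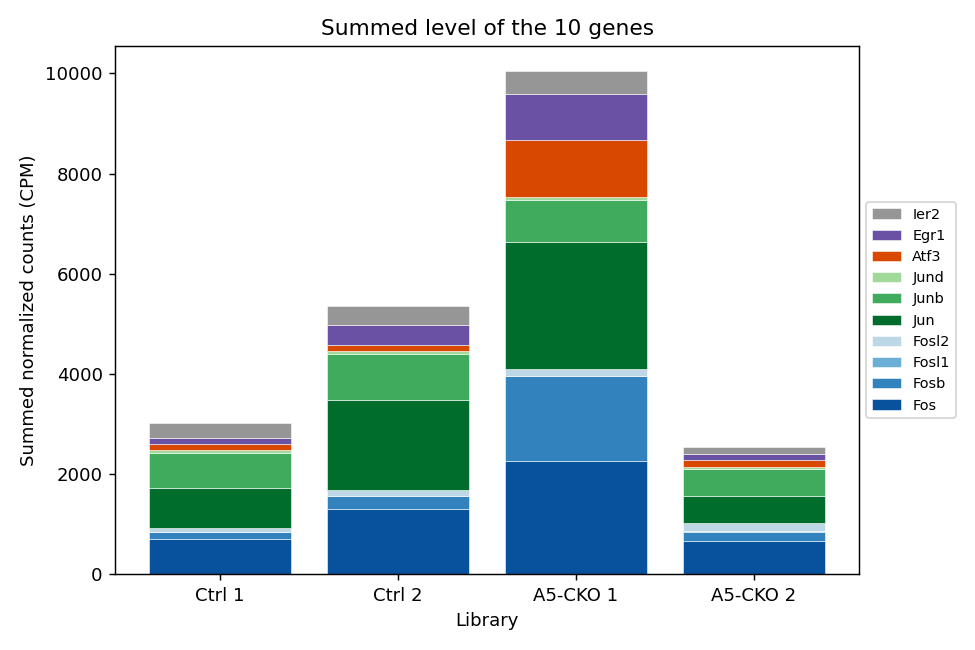
Summed level of the 10 factors in each library as stacked bars of CPM from 0, 1 bar per library and 1 colour per gene. The bar of A5-CKO 1 reaches 10047 CPM and that of the next library, Ctrl 2, 5359 CPM, with taller parts for Fosb and Atf3 in A5-CKO 1.

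Compared per length, as CPM per kilobase of the longest transcript, the members spanned more than 2 orders of magnitude in median level over the 4 libraries. Fos was at the top, with a median of 476 CPM per kilobase (range 313 to 1072), then Junb at 424 (304 to 512) and Jun at 406 (167 to 794), and these 3 ranges overlapped. Ier2 followed at 223 (90.4 to 307). Atf3 at 65.1 (59.7 to 578), Fosb at 59.3 (39.1 to 451) and Egr1 at 57.0 (28.6 to 202) had overlapping ranges too, as had Jund at 37.7 (16.2 to 38.4) and Fosl2 at 17.8 (12.6 to 25.2). Fosl1 was lowest, at 2.2 (0.999 to 6.58), and its highest library was below the lowest library of any other member. In A5-CKO 1 the order changed, and Atf3, at 578 CPM per kilobase, stood above Junb at 460.

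The wider group of 35 other immediate early genes, of which 33 could be tested, had log2 fold changes above 0 for 27 and below 0 for 6, with a median of 0.57, against -0.02 over all genes. Of these genes, 8 had an unadjusted p under 0.05 and were higher in A5-CKO, beside 4.48% of all genes, none was lower at that level, and none passed after adjustment (each adjusted p = 0.528 by edgeR's quasi-likelihood test). Those 8, whose groups also did not overlap, were Egr3 (log2 fold change 1.88), Nr4a2 (1.5), Ier5 (1.19), Arc (2.05), Ptgs2 (1.33), Plk2 (0.98), Plk3 (1.00) and Klf6 (1.64). Ptgs2, the inducible cyclooxygenase, had 43.4 and 39.5 CPM in the Ctrl libraries and 132 and 76.3 CPM in the A5-CKO libraries. Klf6, a zinc finger factor, had 189 and 164 CPM in Ctrl, 814 CPM in A5-CKO 1 and 285 CPM in A5-CKO 2. A5-CKO 1 was thus the higher of the 2 for both genes. That A5-CKO 2 was above both Ctrl libraries followed from naming only genes whose groups did not overlap.

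Over the whole wider list, 15 of the 33 were separated and higher in A5-CKO, beside 3 of the 10 factors and 20.3% of all genes. Of the 33, 1 was separated and lower, beside 23.5% of all genes. The lists also differed when A5-CKO 1 was left out. Without A5-CKO 1, 23 of the 33 were above 0, beside 45.7% of all genes, and their median was 0.43. The factors then had 3 of 10 above 0 and a median of -0.60. A5-CKO 1 was the highest library for 19 of the 33 genes, beside 27.8% of all genes. It was over 2-fold above each other library for 5 of them (Nr4a1, Nr4a3, Klf2, Klf6 and Arc), beside 4.35% of all genes. The orphan nuclear receptor gene Nr4a1 was, like Egr1, highest in A5-CKO 1 and next in Ctrl 2, with 76.1 and 249 CPM in Ctrl 1 and Ctrl 2, 573 CPM in A5-CKO 1 and 116 CPM in A5-CKO 2.

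**Figure D5:**
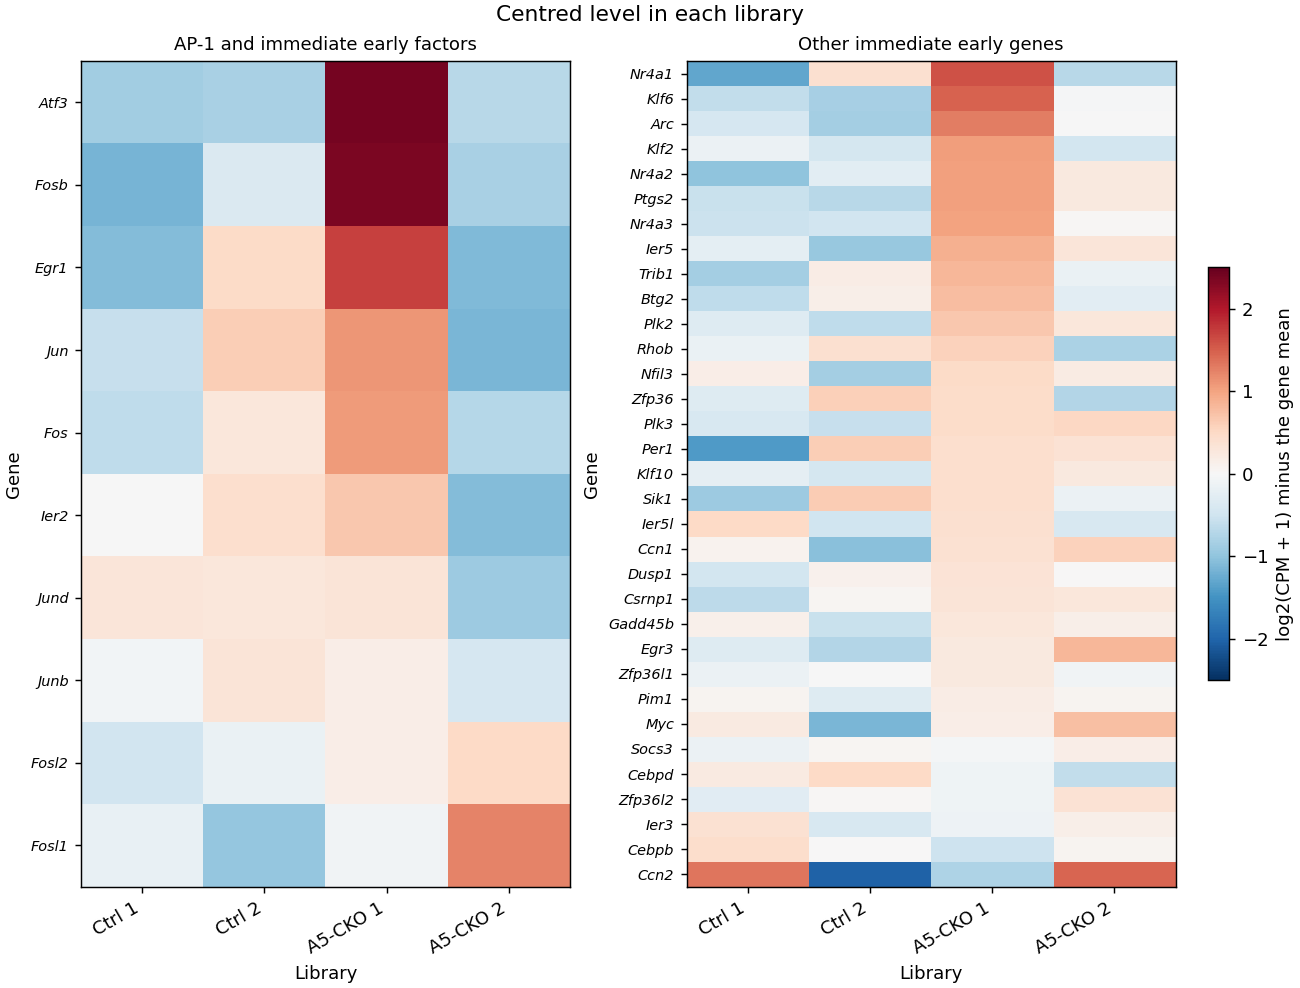
Level of each factor (left) and of the other immediate early genes (right) in the 4 libraries, as log2(CPM + 1) minus the mean of the gene over the libraries, in red above and blue below 0. In the left panel Atf3 and Fosb reach 2.39 and 2.35 in A5-CKO 1, and Fosl1 and Fosl2 are highest in A5-CKO 2.

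The other proteins that pair with AP-1 members were divided in direction. Of the 9 dimer partners and small Maf genes, 4 were above and 5 below 0, with a median of -0.04, none had an unadjusted p under 0.05, and the extremes were Atf2 (0.56) and Mafg (0.22) at the top and Batf (-1.37) and Batf2 (-0.42) at the bottom. The serum response factor list, the factors through which Fos and Egr1 are switched on, had 3 of 6 above 0 and none under 0.05, from Elk4 (0.70) and Mrtfb (0.24) to Mrtfa (-0.26) and Elk1 (-1.04). Of 13 tested MAP kinase genes, Map3k1 was higher (0.91) and Mapk3, which encodes ERK1, was lower (-0.76), each with an unadjusted p under 0.05, so 1 of 13 in either direction beside 4.48% higher and 4.71% lower over all genes. Mapk3 had 402 and 389 CPM in Ctrl and 241 and 227 CPM in A5-CKO, and the libraries of each genotype lay close together. Of 8 brakes on AP-1 and Egr1, Nab2, a corepressor of Egr1, was lower at that level (-0.90), 1 of 8 beside 4.71% of all genes, with 55.5 and 72.4 CPM in Ctrl and 39.3 and 29.4 CPM in A5-CKO. None of these genes passed after adjustment over all genes.

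Genes known as AP-1 targets followed a different library from most of the factors. Of 18 target genes, 14 were above 0, with a median of 0.59, and Vegfa (0.98), Lif (1.23) and Ets1 (1.06) had an unadjusted p under 0.05 with separated groups, beside 4.48% of all genes. A5-CKO 2 was the highest library for 12 of the 18 and A5-CKO 1 for 2, beside the 20.2% and 27.8% of all genes given above. Spp1, the secreted protein osteopontin, had 818 and 21.99 CPM in Ctrl 1 and Ctrl 2, and 107 and 1172 CPM in A5-CKO 1 and A5-CKO 2. Ctrl 1 and A5-CKO 2 were thus the high libraries for Spp1, 1 from each genotype. Without A5-CKO 2 the median of the target list was -0.63, without A5-CKO 1 it was 1.02, without Ctrl 1 it was 1.58 and without Ctrl 2 it was 0.16.

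Other features of the libraries moved with these values. The 2 nuclear RNAs Malat1 and Neat1, retained in the nucleus, were highest in A5-CKO 1 as Atf3 and Fosb were. Malat1 had 722 and 621 CPM in Ctrl 1 and Ctrl 2, 3607 CPM in A5-CKO 1 and 1304 CPM in A5-CKO 2. Neat1 had 459 and 491 CPM in Ctrl, and 2413 and 750 CPM in A5-CKO. Their log2 fold changes were 1.87 and 1.74, with unadjusted p of 0.0112 and 0.0197 and an adjusted p of 0.528 by edgeR's quasi-likelihood test. Without A5-CKO 1 they were 0.95 and 0.65, with unadjusted p of 0.108 and 0.236. Their part in the levels of the factors was not tested.

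Markers of mesenchymal cells were highest in A5-CKO 2, as Fosl1 and Fosl2 were. All 8 were highest in that library, beside 20.2% of all genes. Of them, 7 were over 2-fold above each other library, beside 2.95% of all genes. The 8 summed to 432 and 157 CPM in Ctrl and 102 and 1126 CPM in A5-CKO, and Col1a1 ranged from 21.3 to 386 CPM. The 13 leukocyte and macrophage markers summed to 886 and 677 CPM in Ctrl and 451 and 1245 CPM in A5-CKO. Of these markers, 7 were highest in A5-CKO 2, beside 20.2% of all genes. Between genotypes 5 of them were above and 8 below 0, with a median of -0.16 that was 0.86 without Ctrl 1, 0.53 without A5-CKO 1 and -1.03 without A5-CKO 2. Ptprc, the leukocyte marker CD45, had 50.9 and 22.5 CPM in Ctrl and 84.3 and 82.8 CPM in A5-CKO, with a log2 fold change of 1.19. It was the 1 gene of the 13 with an unadjusted p under 0.05, beside 9.18% of all genes in either direction. The 6 endothelial markers summed to 95.7 to 212 CPM, with Cldn5 at 0 counts in every library. The part of these cells in the levels of Fosl1, Fosl2 and the target genes was not tested.

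The alveolar markers also differed between the libraries. All 12 AT2 markers had log2 fold changes below 0, with a median of -0.86, and 8 were separated and lower in A5-CKO, beside 23.5% of all genes. Sftpb (-1.12, on its main copy of 2 in the annotation), Napsa (-1.13) and Cebpa (-1.56) had an unadjusted p under 0.05, 3 of 12 beside 4.71% of all genes. Sftpb had 274 and 419 CPM in Ctrl and 150 and 168 CPM in A5-CKO, far below the level of Sftpc. With DESeq2's default filtering Cebpa was the 1 AT2 marker that passed (adjusted p of 0.0301), beside 0.38% of genes with an adjusted p. Of the 12 markers of transitional alveolar cells, 11 were above 0 with a median of 0.24, which was 1.49 without Ctrl 1, -0.29 without Ctrl 2, 0.63 without A5-CKO 1 and -0.33 without A5-CKO 2. Krt8 (0.0045), Krt7 (0.057), Lgals3 (0.075) and Sfn (0.086) were among the 11 but close to 0, and Trp53 (-0.15) was the 1 below 0. The growth factor genes Areg (1.13) and Hbegf (1.27) were under 0.05, 2 of 12 beside 4.48% of all genes. The 6 club and ciliated markers were all below 0, with Cyp2f2 (-1.15), Foxj1 (-1.51) and Ccdc153 (-2.53) under 0.05, 3 of 6 beside 4.71% of all genes. The AT1 marker Ager had 2 to 6 counts in a library. The AT2 markers summed to 67936 and 94545 CPM in Ctrl and to 49916 and 41297 CPM in A5-CKO, so they separated the genotypes where 7 of the 10 factors had A5-CKO 1 as the highest library. Whether the AT2 share bears on the factors was not tested.

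The genes whose pattern was most like the average of the factors were looked for among 9915 other genes with a mean of at least 10 CPM. The measure was the root mean square distance over the 4 libraries between log2(CPM + 1) values centred on each gene's mean, and the average was taken over the 9 members above the same level, which left out Fosl1. That average was -0.51 and 0.11 in the Ctrl libraries, 1.10 in A5-CKO 1 and -0.71 in A5-CKO 2. The 5 nearest were Hnrnph3 (distance 0.080), which encodes a ribonucleoprotein, Fam193b (0.097), Nsun7 (0.111), Ccdc15 (0.137) and Adamts10 (0.138), which encodes a secreted metalloprotease. Fos, the member nearest to the average, was at 0.104. None of the 5 belonged to the immediate early list, and with 4 points that share their libraries the likeness describes these libraries alone.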

How the data were processed

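RNA-seq libraries were made from sorted AT2 cells with a SMARTER mRNA-Seq kit. The authors trimmed reads with Trim Galore 0.6.10, cleared them of ribosomal RNA, mapped them to mm10 with HISAT2 2.2.1, removed duplicates with sambamba and deposited raw read counts per gene from featureCounts 2.0.3 (versions from the submitters' processing notes). The counting is described under MeRIP-seq and was taken as that of the RNA-seq, and its strand setting is not given in the sources used here. Removing duplicates without molecular identifiers can lower the counts of short, abundant transcripts such as those of Fos, Jun and Ier2.

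From the deposited counts, edgeR 4.0.16 in R 4.3.3 was run with TMM factors (0.860 to 1.13), filterByExpr, glmQLFit and glmQLFTest, with Benjamini-Hochberg adjustment over 16661 of 40092 genes. The biological coefficient of variation was 41.6%. Unadjusted p-values are from the same fit. A standard error is the fitted log2 value over the root of its F statistic. CPM uses TMM-scaled library sizes, so 3 counts were 0.128 to 0.177 CPM, a floor that covers counting error only. Lengths are of the longest GENCODE M21 transcript, and gene positions of RefSeq on GRCm38.p6. The fit was also run on simulated data, and the outcome of that run is not given here.

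The members and lists were chosen with earlier results of these data known. All members are named, with the genes of each list that had p under 0.05 and separated groups or, where there was none, the 2 at either end. Of the other genes, Nr4a1, Nr4a3, Klf2, Spp1, Sftpc, Col1a1, Cldn5, Ager, Hspa1a and Hspa1b were chosen after their values were seen. So were Krt8, Krt7, Lgals3, Sfn and Trp53, and the overlapping Ccdc85b and Junos. Alternatives were other scaling factors, no filter, a minimum of 10 counts, DESeq2 1.42.0, limma voom (limma 3.58.1), a robust fit, a replicate block, a correction for GC content and length (91.5% of tested genes) and each library left out in turn.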

Additional observations from a re-analysis of the deposited data

How the results depend on the processing

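Of 110 log2 fold changes (10 members under 11 alternatives with all 4 libraries), 104 kept their direction and their side of the threshold and 6 reversed: Jun with limma voom (-0.034) and the replicate block (-0.036), Junb with total counts only (0.089) and the GC and length correction (0.16), and Ier2 with the same settings (0.15 and 0.25). Total counts only also moved the median of all genes to 0.30. Leaving out 1 library each reversed 8 of 40 values, and the ranges were -0.62 to 1.14 for Fos, -0.11 to 3.04 for Fosb, -1.29 to 0.94 for Jun, -0.58 to 0.0027 for Junb, 0.55 to 2.22 for Fosl1, 0.45 to 0.82 for Fosl2, 0.15 to 3.21 for Atf3, -1.01 to 1.94 for Egr1, -1.31 to 0.43 for Ier2 and -0.60 to 0.95 for the members' median, which was 0.33 without Ctrl 1 and negative without A5-CKO 1 alone. Leaving out either Ctrl library also put the unadjusted p of Atf3 (0.085 and 0.0999) and Fosb (0.153 and 0.0852) above 0.05. No member passed an adjusted p of 0.05 under any of these settings. Over all genes, edgeR called 0, DESeq2 59 with default filtering and 64 on the genes edgeR tested. Genes with p under 0.05 and a fold over 2 numbered 981, 615 with the replicate block and 562 with the GC and length correction, and under the other alternatives from 746 (without A5-CKO 1) to 1449 (total counts only). The deviations of the same-numbered libraries from their group means had a correlation of -0.35. With 2 libraries in each group those deviations mirror each other, so this value cannot show whether the libraries were paired. With the block Atf3 was at 1.70 and Fosb at 1.54. Alkbh5 passed with DESeq2 (log2 fold change -2.01 and -2.02, adjusted p of 0.0214 and 0.0227). The causes were not tested. The libraries' depth was ample for all members but Fosl1, and their number, 2 in each group, limits the precision.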

Other observations

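Heat shock genes are another group known to be induced during cell isolation. Of 11 listed, 9 had enough counts to be tested, and of these 8 had a log2 fold change below 0. The median of the 9 was -0.19, and 0.12 with total counts only. It ran from -0.47 to 0.13 as each library was left out, the highest without Ctrl 1. None of the 9 had an unadjusted p under 0.05, and Ctrl 1 was the highest library for 8, beside 23.6% of all genes. The lowest were Hspe1 (-0.85) and Hsph1 (-0.83), and the highest Hspd1 (-0.07) and Hsp90aa1 (0.54), which was highest in A5-CKO 1. The pair left out, the inducible and nearly identical Hspa1a and Hspa1b, also had most counts in A5-CKO 1, with 6, 6, 36 and 4 counts of Hspa1a and 2, 0, 10 and 0 of Hspa1b in Ctrl 1, Ctrl 2, A5-CKO 1, A5-CKO 2. Whether this group differs from the immediate early factors was not tested. The summed levels of the list were 3329 and 2075 CPM in Ctrl 1 and Ctrl 2, and 1981 and 1999 CPM in A5-CKO 1 and A5-CKO 2. Of 6 tested AT1 markers, 5 were above 0, with a median of 0.69 (1.28 without Ctrl 1 and 0.38 without Ctrl 2), and none had an unadjusted p under 0.05. The extremes were Aqp5 (-0.79) and Clic5 (0.58) at the bottom and Rtkn2 (1.49) and Akap5 (1.55) at the top. Among 5 tested endothelial markers they were Vwf (-0.52), Cdh5 (-0.080), Pecam1 (0.0086) and Tek (0.20), and among 8 mesenchymal markers Dcn (0.0091), Pdgfra (0.47), Acta2 (1.27) and Postn (1.44). The mesenchymal median was 1.06 with all libraries and -1.30 without A5-CKO 2, where 0 of the 8 were above 0.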
